A study of Mus musculus with 6 samples.

Results

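The miR-25 and miR-92 seed family comprises 5 mature miRNAs that carry the same seed, mmu-miR-25-3p, mmu-miR-92a-3p, mmu-miR-92b-3p, mmu-miR-363-3p and mmu-miR-32-5p, named here without the mouse prefix. Its members were taken by name from the 1926 miRNA rows of the deposited table, and each had a row of its own that was not merged with another miRNA. The small RNA was sequenced from extracellular vesicles, small membrane-bound particles shed by cells, that were isolated from mouse brain. The SE-BDEV group held vesicles of mice that had undergone status epilepticus (a prolonged seizure) and the CON-BDEV group those of matched controls. Each group held 3 libraries numbered 1 to 3, and all titles carry day 10. The labels do not give how status epilepticus was brought about, what day 10 is counted from, and the strain, sex, genotype and age of the mice. They also do not state whether each library is its own animal, so the p-values describe only the spread among these libraries, which may be technical.

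A miRNA guides the silencing complex to messenger RNAs that pair with its seed, bases 2 to 8 from the 5′ end, so members of a seed family can share many targets. This family is spread over several hairpins. miR-92a comes from the miR-17 to miR-92a-1 cluster, known for its role in cell proliferation, and from a related cluster on the X chromosome that also holds miR-363. miR-25 lies with miR-106b and miR-93 in the gene for the replication helicase subunit Mcm7, while miR-92b and miR-32 come from hairpins of their own. In developing cortex, miR-92 miRNAs are known to restrain the progenitor factor Eomes, and in vessels miR-92a is known to restrain endothelial growth.

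The mature sequences are shown because the 3 members detected in these vesicles are similar RNAs that did not share 1 profile. Across the 6 libraries, miR-92b-3p correlated negatively with miR-25-3p and miR-92a-3p (r = -0.84 and -0.56). miR-25-3p and miR-92a-3p correlated with each other at r = 0.691. The sequences come from RefSeq (GRCm38.p6), with the seed in capitals.
miR-92b-3p: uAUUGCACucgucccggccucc
miR-92a-3p: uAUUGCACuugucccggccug
miR-25-3p: cAUUGCACuugucucggucuga
miR-363-3p: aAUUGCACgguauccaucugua
miR-32-5p: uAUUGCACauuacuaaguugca
Against miR-92a-3p, counting from 1 at the 5′ end, miR-92b-3p differs by U10C and G21C and miR-25-3p by U1C, C14U and C18U. miR-25-3p and miR-92b-3p differ from each other at 6 of 22 positions. miR-363-3p and miR-32-5p differ from miR-92a-3p at 11 and 10 of the 21 compared positions. The sources used here do not state how reads with a mismatch were assigned between miR-92a-3p and miR-92b-3p, so their separation rests on the authors' counting. Of the 1679 mature mouse sequences in the RefSeq table, 6 carried this seed. The one outside the family list, miR-367-3p, an embryonic stem cell miRNA, was listed at 0 in all 6 libraries.

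Values are RPM, reads scaled to the same total over all listed miRNAs in each library. In each library every value was a whole multiple of a single step, within 0.001 step, and the smallest listed value was 2 steps. If 1 step is 1 read, the libraries held 4400167 to 9391887 reads, with CON-BDEV 1 the shallowest. They listed 532 to 631 miRNAs above 0, and the fewest were again in CON-BDEV 1. Of the 1926 rows, 1123 were at 0 in all 6 libraries, so a miRNA listed at 0 throughout is common here. The defining neuronal miRNAs of brain were abundant in all libraries, miR-124-3p at 6654 to 9540 RPM and miR-9-5p at 3550 to 8512 RPM. Both libraries numbered 3 stood apart for miR-24-3p, which was above 0 in no other library. SE-BDEV was compared with CON-BDEV by limma on log2(RPM + 1) over the 308 miRNAs that averaged at least 10 RPM. Of these, 3 passed an adjusted p under 0.05 (0.974%), all higher in SE-BDEV, and 10 (3.25%) passed with the replicate number as a block.

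The family was a small part of the vesicle miRNA, and miR-92b-3p made up most of it. Its 5 members summed to 602, 252 and 248 RPM in CON-BDEV 1, 2 and 3 and to 208, 233 and 217 RPM in SE-BDEV 1, 2 and 3. These sums were 0.0208% to 0.0602% of all miRNA reads and were by far the highest in CON-BDEV 1. In bulk vesicle RNA, fewer vesicles from a cell type and less of a miRNA in each vesicle cannot be told apart. miR-92b-3p contributed 93.2%, 82.5% and 74.8% of the family in CON-BDEV 1, 2 and 3. In SE-BDEV 1, 2 and 3 its share was 65.3%, 68.9% and 76.8%, so the groups overlapped. The sum averaged 367 ± 203 RPM over CON-BDEV and 219 ± 12.7 RPM over SE-BDEV (SD, n = 3), a log2 ratio of means of -0.75. Without CON-BDEV 1 this log2 ratio was -0.19. miR-363-3p and miR-32-5p were listed at 0 in all 6 libraries and are described no further than that. Of the other 3 members, miR-25-3p and miR-92a-3p passed the filter on low values, with means of 27.4 and 29.6 RPM. miR-92b-3p averaged 236 RPM over the 6 libraries. None of the 3 passed the test between groups, by limma with or without the replicate block or in the authors' deposited table, where 1.12% of the 625 miRNAs with an adjusted p were under 0.05. In the limma fit without the block none was at an unadjusted p under 0.05 either, against 10.4% of the tested miRNAs. In miR-92b-3p and miR-25-3p the groups did not overlap, as in 16.2% of the tested miRNAs in either direction.

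**Figure D1:**
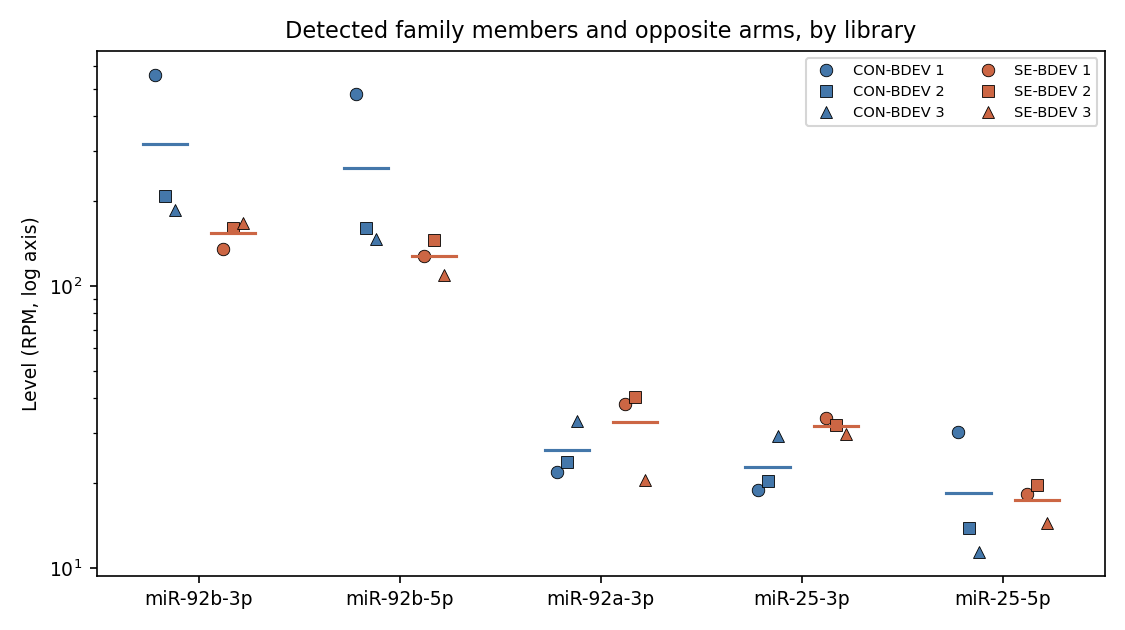
Level in RPM (log axis) of the 3 detected family members and of the opposite arms of the miR-92b and miR-25 hairpins, with a symbol for each of the 3 CON-BDEV and 3 SE-BDEV libraries and a line at each group mean. CON-BDEV 1 lies far above the other 5 libraries for miR-92b-3p and miR-92b-5p (561 and 480 RPM) and lowest or next to lowest for miR-25-3p and miR-92a-3p.

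miR-92b-3p, the member of brain and neural progenitors, was lower in the SE-BDEV libraries, but most of that difference lay in 1 control library. It stood at 561, 208 and 186 RPM in CON-BDEV 1, 2 and 3 and at 136, 160 and 167 RPM in SE-BDEV 1, 2 and 3. All 3 control values lay above all 3 SE-BDEV values, by 186 against 167 RPM at the nearest. Groups did not overlap in this direction for 5.52% of the 308 tested miRNAs. The log2 difference was -0.86 ± 0.40 (SE, limma adjusted p = 0.438, unadjusted p = 0.0528), the 11th lowest of 308. CON-BDEV 1 was 3.28-fold above the mean of the other 5 libraries. Without it the control mean was 197 RPM against 154 RPM in SE-BDEV, and the log2 difference was -0.35 ± 0.26 (SE, limma adjusted p = 0.857). With the replicate block the limma adjusted p was 0.144 (unadjusted 0.0131) at the same difference. The authors' deposited table gave a log2 fold change of -1.09 ± 0.43 (SE, adjusted p = 0.289). If 1 step is 1 read, these values rest on 801 to 2470 reads, a counting error of 2.01% to 3.53%. The coefficient of variation between libraries was 66.2% in CON-BDEV and 10.6% in SE-BDEV.

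miR-92b-5p, the opposite arm of the same hairpin, followed miR-92b-3p closely. The hairpin, from RefSeq, lies at chr3:89227116-89227198 on the minus strand of GRCm38 and is shown with both arms in capitals, the 5p arm first.
Mir92b: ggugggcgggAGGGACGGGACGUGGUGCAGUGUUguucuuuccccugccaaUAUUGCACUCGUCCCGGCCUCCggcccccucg
In GENCODE M21 no other gene overlaps it, and the nearest protein-coding genes are Mtx1, 28 bases away on the same strand, and Thbs3, 279 bases away on the opposite strand. miR-92b-5p stood at 480, 160 and 147 RPM in CON-BDEV 1, 2 and 3 and at 128, 146 and 110 RPM in SE-BDEV 1, 2 and 3. As with the 3p arm, CON-BDEV 1 was far above the rest. The groups touched at 146.8 against 145.9 RPM without overlapping. The log2 difference was -0.82 ± 0.42 (SE, limma adjusted p = 0.438) and without CON-BDEV 1 it was -0.27 ± 0.27 (SE, limma adjusted p = 0.864). The ratio of the 5p to the 3p arm averaged 0.805 ± 0.0449 over CON-BDEV and 0.837 ± 0.155 over SE-BDEV (SD, n = 3), so both arms were present at similar levels in every library.

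The agreement of the miR-92b arms can be set beside that of other hairpins. The log2 differences of the miR-92b arms were 0.0393 apart. Over the 60 hairpins whose 2 arms were both tested, the median gap was 0.26, and 3 hairpins had a smaller gap than miR-92b. Across the 6 libraries the 2 arms of miR-92b correlated at r = 0.969, against a median of 0.479 over these hairpins. The points share library and depth, and the r of miR-92b rests largely on CON-BDEV 1.

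miR-92a-3p, which is made from hairpins on chromosomes 14 and X, did not separate the groups. It stood at 21.8, 23.7 and 33.1 RPM in CON-BDEV 1, 2 and 3 and at 38.0, 40.2 and 20.4 RPM in SE-BDEV 1, 2 and 3. SE-BDEV 1 and 2 were the highest of the 6 libraries and SE-BDEV 3 was the lowest. The log2 difference was 0.28 ± 0.35 (SE, limma adjusted p = 0.782), and the authors' deposited table gave 0.28 ± 0.44 (SE, adjusted p = 0.987). Without SE-BDEV 3 the difference was 0.58 ± 0.33 (SE, limma adjusted p = 0.698). Leaving out CON-BDEV 3 gave 0.46, leaving out CON-BDEV 1 gave 0.17, and leaving out SE-BDEV 1 or SE-BDEV 2 gave 0.15 or 0.11, so single libraries moved this value by more than 1.5 times. If 1 step is 1 read, its 96 to 357 reads would carry a counting error of 5.29% to 10.2%, while the libraries of a group varied by 23.2% in CON-BDEV and 32.95% in SE-BDEV.

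The opposite arms are the only products that tell the miR-92a hairpins apart, since the 3p sequence is the same from both. miR-92a-1-5p, from the Mir17hg transcript on chromosome 14 (Mir92-1, chr14:115044427-115044506, plus strand, GRCm38), stood at 10.5, 3.31 and 6.23 RPM in CON-BDEV 1, 2 and 3. It was at 5.43, 6.41 and 5.19 RPM in SE-BDEV 1, 2 and 3, inside the control range, and its mean was under the filter. miR-92a-2-5p, from the X-chromosome hairpin (Mir92-2, chrX:52741838-52741928, minus strand, GRCm38), was listed at 0 in all 6 libraries.

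miR-25-3p had higher values in SE-BDEV, without overlap and without passing the test. It stood at 18.9, 20.4 and 29.3 RPM in CON-BDEV 1, 2 and 3 and at 34.0, 32.0 and 29.8 RPM in SE-BDEV 1, 2 and 3. CON-BDEV 3 lay just under the lowest SE-BDEV library, 29.3 against 29.8 RPM. If 1 step is 1 read, 83 to 319 reads with a counting error of 5.60% to 10.98% lie behind these values. Groups did not overlap in this direction for 10.7% of the tested miRNAs. The group means were 22.9 ± 5.66 and 31.9 ± 2.09 RPM (SD, n = 3), a log2 difference of 0.49 ± 0.31 (SE, limma adjusted p = 0.571). The authors' deposited table gave 0.41 ± 0.33 (SE, adjusted p = 0.773).

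Over all 6 libraries the miR-25 arms, unlike those of miR-92b, did not move together, which rested largely on CON-BDEV 1. miR-25-5p stood at 30.2, 13.9 and 11.4 RPM in CON-BDEV 1, 2 and 3 and at 18.3, 19.6 and 14.4 RPM in SE-BDEV 1, 2 and 3. CON-BDEV 1 was its highest library and the lowest library of miR-25-3p, so the ratio of the 5p to the 3p arm was 1.60 there and 0.389 to 0.681 in the other 5. Over the 6 libraries the arms correlated at r = -0.37, a value that, like the r of miR-92b, rests largely on CON-BDEV 1. Without that library the log2 differences of the 3p and 5p arms were alike, at 0.37 and 0.43. The log2 difference of miR-25-5p was 0.0293 ± 0.387 (SE, limma adjusted p = 0.966), and its sign depended on the scaling and on single libraries. It was -0.0374 with median-of-ratios scaling, -0.24 without CON-BDEV 3 and 0.43 without CON-BDEV 1.

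The minor arms of the undetected members were scarcely present. miR-32-3p, the opposite arm of the miR-32 hairpin in an intron of Tmem245 on chromosome 4, was above 0 in all 6 libraries, at 3.34 to 5.68 RPM in CON-BDEV and 3.30 to 8.21 RPM in SE-BDEV. Its sequence is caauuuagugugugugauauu, shown because the other arm, the family member miR-32-5p, was listed at 0 in the same libraries. Among 677 hairpins with 2 arms in the deposited table, 73 had one arm at 0 in all libraries and the other above 0 in all 6. miR-363-5p was listed only in SE-BDEV 3, at 1.33 RPM.

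**Figure D2:**
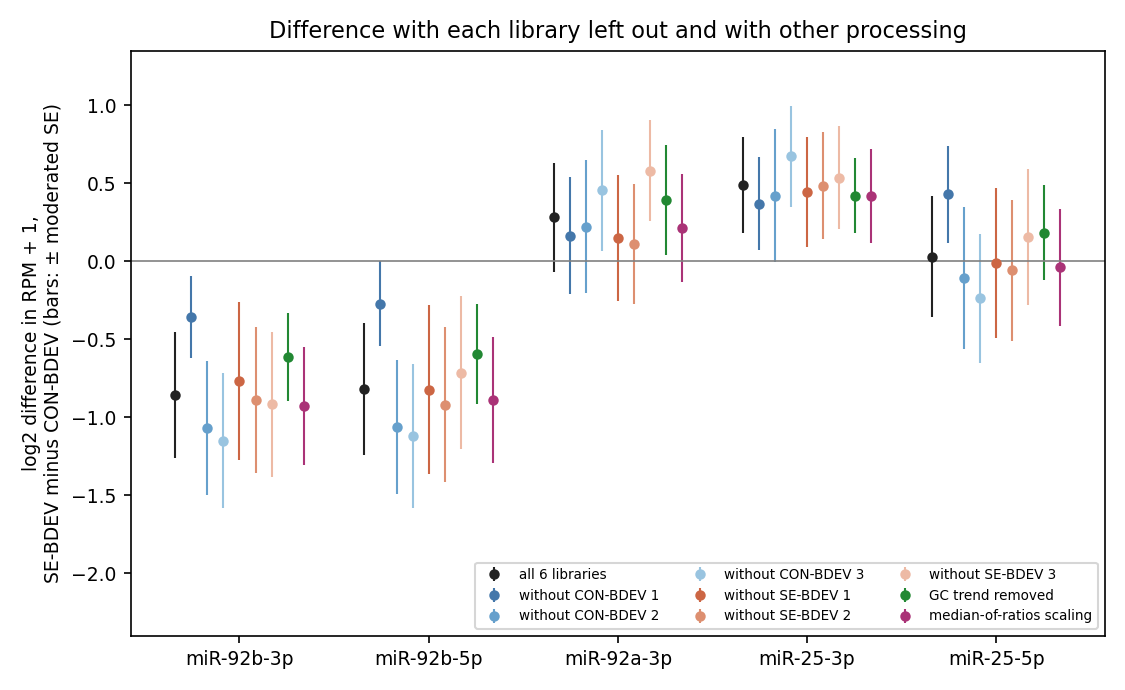
Difference in log2(RPM + 1), SE-BDEV minus CON-BDEV, with its moderated standard error, for the 3 detected members and 2 opposite arms with all 6 libraries, with each library left out, with the GC trend removed and with median-of-ratios scaling. Both miR-92b arms move nearest to 0 without CON-BDEV 1 (-0.35 and -0.27), while miR-25-3p stays between 0.37 and 0.67 when any 1 library is left out.

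The contrast within the family was measured as the ratio of miR-92b-3p to miR-92a-3p, which as a plain ratio does not depend on scaling to a total. The ratio of RPM values was 25.7, 8.78 and 5.61 in CON-BDEV 1, 2 and 3 and 3.57, 3.99 and 8.14 in SE-BDEV 1, 2 and 3. The groups overlapped, with SE-BDEV 3 above CON-BDEV 3. For the log2 ratio 1 RPM was added to each value, so it depends slightly on scaling. This log2 ratio averaged 3.39 ± 1.12 over CON-BDEV and 2.25 ± 0.63 over SE-BDEV (SD, n = 3). The difference was -1.14 (two-sided exact permutation p = 0.2, smallest possible 0.1), against -1.15 with nothing added. With 1 RPM added and without CON-BDEV 1 the difference was -0.52. A different response of the 2 members was thus not shown at this number of libraries.

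CON-BDEV 1 differed from the other control libraries along the GC content of the miRNAs. miR-92b-3p is 63.6% GC, above 84.4% of the 270 tested miRNAs with a RefSeq sequence, whose median was 50.0%. miR-92b-5p is 62.5% GC, miR-25-5p 59.1%, miR-92a-3p 57.1% and miR-25-3p 50.0%. The log2 excess of CON-BDEV 1 over the mean of CON-BDEV 2 and 3 was 1.51 for miR-92b-3p and 1.64 for miR-92b-5p, the 14th and 9th highest of 308 miRNAs. It was -0.35 for miR-92a-3p and -0.36 for miR-25-3p. Across the 270 miRNAs this excess correlated with GC content at a Spearman rho of 0.645, and the difference between SE-BDEV and CON-BDEV correlated with it at -0.57. Without CON-BDEV 1 the latter was -0.29. The miRNAs share their libraries and are not independent points. With a GC trend removed from each library, the log2 difference of miR-92b-3p was -0.61 ± 0.28 (SE, limma adjusted p = 0.478) and that of miR-92b-5p -0.59 ± 0.32 (SE, limma adjusted p = 0.529). With CON-BDEV 1 left out as well, they were -0.36 and -0.28, close to the values without that library alone.

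**Figure D3:**
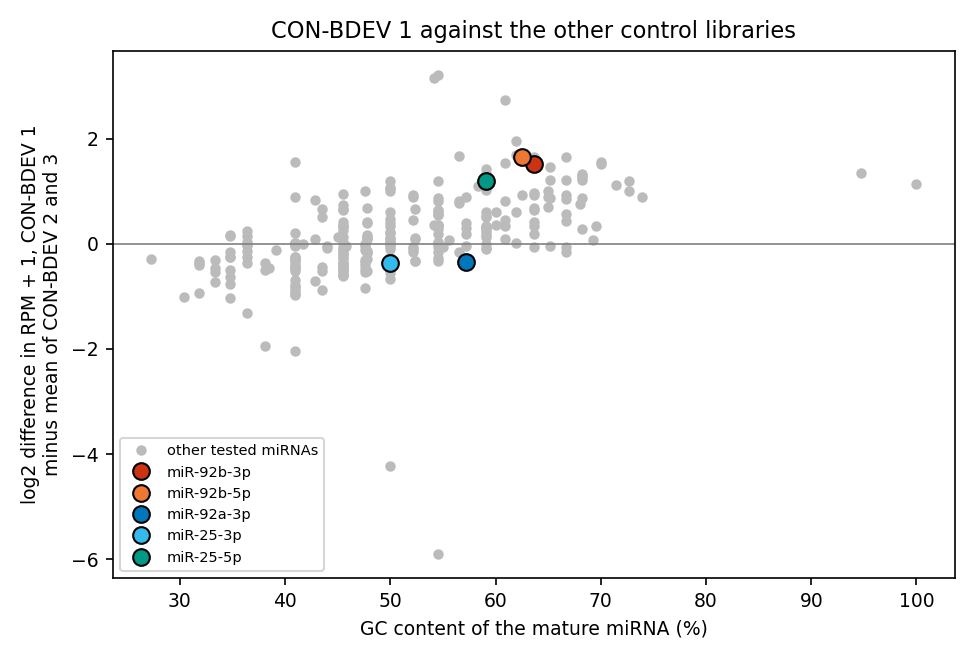
Log2 excess of CON-BDEV 1 over the mean of CON-BDEV 2 and 3 against the GC content of the mature miRNA in percent, for the 270 tested miRNAs with a RefSeq sequence, with family members and opposite arms in colour. The excess is higher at higher GC (Spearman rho of 0.645), and both miR-92b arms lie near the upper edge at 1.51 and 1.64 while miR-92a-3p and miR-25-3p lie below 0.

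The miRNAs most like each member across the 6 libraries were taken by the highest Pearson correlation of log2(RPM + 1). They were picked from the other tested miRNAs on these same values. A high r and a profile like the member's are thus built in and test nothing. For miR-92b-3p they were miR-323-5p (r = 0.990), miR-139-3p (0.989) and miR-483-3p (0.981), with GC contents of 72.7%, 68.2% and 61.9%. Each was highest in CON-BDEV 1, at 359, 965 and 33.6 RPM, against at most 182, 439 and 8.06 RPM elsewhere. miR-483-3p reached the filter of 10 RPM only through CON-BDEV 1. miR-92b-5p came 4th. For miR-92a-3p they were miR-219a-2-3p (r = 0.936), an oligodendrocyte miRNA, miR-365-3p (0.911) and the merged miR-129-1-3p/129-2-3p (0.910). The first 2 were, like miR-92a-3p, lowest in SE-BDEV 3. For miR-25-3p they were miR-872-5p (r = 0.969), miR-22-5p (0.953) and miR-6540-5p (0.945). In CON-BDEV 1 and 2, miR-872-5p had a value of 0, against 13.7 to 19.3 RPM in the other 4 libraries. Both miR-872-5p and miR-6540-5p averaged under 10 RPM in CON-BDEV and reached the filter only through their SE-BDEV values. Among the members themselves, miR-25-3p and miR-92a-3p correlated at r = 0.691, and miR-92b-3p was negatively correlated with both, at -0.84 and -0.56.

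The other guide arms of the members' clusters comprised 10 miRNAs. Of these 3 were listed at 0 in all libraries, as were 1123 of the 1926 deposited rows. A further 2 were tested and none was called, against 0.974% of all tested miRNAs. The tested partners, miR-93-5p and miR-20a-5p, both had higher values in SE-BDEV, but miR-20a-5p averaged 9.15 RPM in CON-BDEV and reached the filter only through its SE-BDEV values. The 4 partners detected in all libraries under the filter had ratios of SE-BDEV to CON-BDEV means near 1: 1.02 for miR-17-5p, 0.843 for miR-18a-5p, 0.817 for miR-106b-5p and 1.08 for miR-20b-5p. miR-93-5p, next to miR-25 in the Mcm7 gene, stood at 781, 843 and 841 RPM in CON-BDEV 1, 2 and 3. It stood at 1513, 1110 and 1069 RPM in SE-BDEV 1, 2 and 3, without overlap, a log2 difference of 0.56 ± 0.26 (SE, limma adjusted p = 0.438). miR-20a-5p, a partner of miR-92a-1, stood at 8.64, 9.08 and 9.73 RPM in CON-BDEV 1, 2 and 3 and at 21.2, 17.2 and 28.6 RPM in SE-BDEV 1, 2 and 3. Its groups were clear of each other, with a log2 difference of 1.17 ± 0.34 (SE, limma adjusted p = 0.237). In this direction 10.7% of the tested miRNAs, these 2 partners among them, did not overlap between groups.

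Levels within a cluster were far from equal although its hairpins share a host transcript or lie side by side. In the miR-106b to miR-25 cluster, whose miR-25 hairpin lies at chr5:138165321-138165404 on the minus strand of GRCm38 within Mcm7, miR-93-5p was 28.7 to 44.5 times the RPM of miR-25-3p in each library. This ratio averaged 37.2 ± 7.36 over CON-BDEV and 38.4 ± 5.38 over SE-BDEV (SD, n = 3). Mature miRNAs are of nearly one length, so RPM levels compare without correction for length, but not for how well each is captured in a library. miR-106b-5p, the third of that cluster, stood at 4.42 to 11.8 RPM in CON-BDEV and 5.11 to 9.33 RPM in SE-BDEV. In the chromosome 14 cluster miR-17-5p (5.48 to 11.9 RPM) and miR-18a-5p (3.00 to 6.82 RPM) were under the filter, and miR-19a-3p and miR-19b-3p were listed at 0 throughout. In the X-chromosome cluster, where the hairpin of the undetected miR-363-3p lies, miR-18b-5p was listed at 0 throughout, miR-20b-5p stood at 2.07 to 5.20 RPM and miR-106a-5p was listed only in SE-BDEV 1 and 3, at 0.43 and 2.22 RPM.

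**Figure D4:**
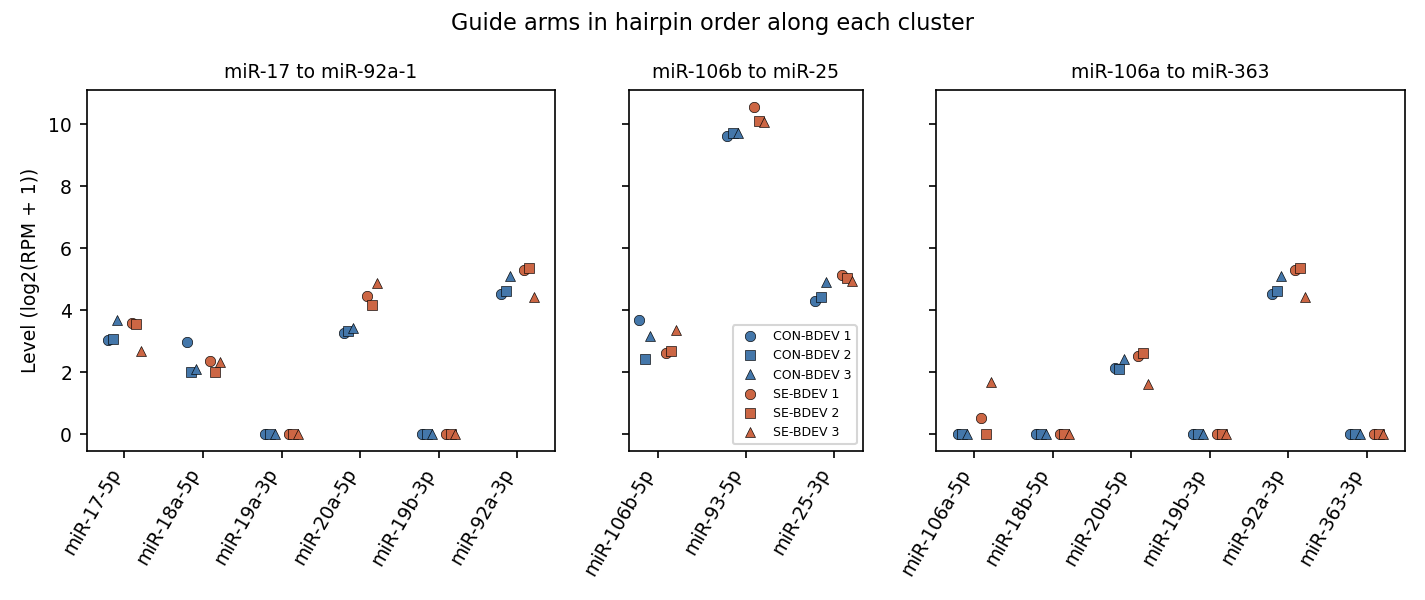
Level (log2(RPM + 1)) of the guide arms in hairpin order along the 3 clusters that hold family members, with a symbol for each of the 3 CON-BDEV and 3 SE-BDEV libraries; miR-92a-3p and miR-19b-3p are made from 2 clusters and are drawn in both. miR-93-5p stands far above its cluster partners, at 781 to 1513 RPM, and miR-19a-3p, miR-19b-3p, miR-18b-5p and miR-363-3p lie at 0 in all 6 libraries.

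Markers of other cell types were read beside the family, because miR-92a and miR-25 are also abundant in red blood cells and miR-92a in endothelium. Of the 4 rows for red cell markers, the defining 3, miR-451a and both arms of miR-144, were at 0 in every library. So were 1123 of the 1926 deposited rows, and these zeros do not show that red cell material was absent. The merged miR-486a-5p/486b-5p stood at 199, 87.4 and 83.6 RPM in CON-BDEV 1, 2 and 3 and at 110, 102 and 111 RPM in SE-BDEV 1, 2 and 3, with CON-BDEV 1 highest as for miR-92b. The 2 endothelial markers, miR-126a-3p and miR-126a-5p, summed to 2828 to 4276 RPM in CON-BDEV and 4116 to 6342 RPM in SE-BDEV, and neither was called. The 2 oligodendrocyte markers summed to 137 to 170 RPM in CON-BDEV and 198 to 296 RPM in SE-BDEV, and neither was called. The sum follows miR-338-3p, at 110 to 144 RPM in CON-BDEV and 160 to 275 RPM in SE-BDEV. Such non-overlap in this direction was seen in 10.7% of the tested miRNAs. miR-219a-2-3p overlapped, at 26.0 to 35.7 RPM in CON-BDEV and 20.7 to 47.3 RPM in SE-BDEV. The 5 markers of white blood cells and microglia summed to 124 to 161 RPM in CON-BDEV and 329 to 466 RPM in SE-BDEV. Of the 4 that were tested, miR-155-5p and miR-142a-5p rose, against 0.974% called over all tested miRNAs. miR-142a-3p was not called (limma adjusted p = 0.344), nor was miR-150-5p, which averaged 76.7 RPM over CON-BDEV and 64.1 RPM over SE-BDEV (limma log2 difference -0.27). The part of these cell types in the values of miR-25-3p and miR-92a-3p was not tested.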

How the data were processed

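The authors deposited RPM values for 6 libraries, made per the labels' protocols with the miRNeasy Micro Kit and the QIAseq miRNA Library Kit. Per the submitters' processing notes DESeq2 and the build mm9 were used, and which aligner and counter were run is not given here. The authors also deposited their own comparison, holding a mean normalized signal per miRNA, a log2 fold change with its error, the score of the test, and raw and adjusted p-values. RPM values were whole multiples of one step, but no value of 1 step is listed, so they were not taken as counts for any test, and depths in reads hold only if 1 step is 1 read.

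Differences were fitted with limma 3.58.1 (R 4.3.3, statmod 1.5.0; intensity trend, robust, two-sided) on log2(RPM + 1) for the 308 miRNAs with a mean of at least 10 RPM. P-values were adjusted by Benjamini-Hochberg over all of them. The fit was tested on simulated data. Fold changes on this scale understate those of low miRNAs. The ratio of 2 members was compared by an exact permutation test with scipy 1.17.1. The GC trend was a loess fit (span 0.75) in each library over the 87.7% of tested miRNAs with a RefSeq sequence. RefSeq and GENCODE M21 coordinates (GRCm38) belong to the reference, since the deposited tables hold none. Figures used matplotlib 3.10.9.

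Same-numbered libraries correlated in their deviations from the group means at 0.216, 0.202 and 0.462, above the bound of 0.1 for treating numbers as pairs. Without miR-24-3p, which is above 0 only in both libraries numbered 3, these were -0.0639, -0.0614 and -0.0806. With miR-24-3p, differently numbered libraries correlated at -0.41 to 0.336. The highest was CON-BDEV 2 with SE-BDEV 1, so the values of numbers 1 and 2 did not stand out. The labels do not say that numbers pair the libraries.

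The members and lists were chosen with earlier results of these data known. Named miRNAs are the members, others with their seed, their opposite arms, their cluster partners, cell type markers, and the 3 most correlated with each tested member.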

Additional observations from a re-analysis of the deposited data

How the results depend on the processing

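No family member was called under any of the 23 alternatives run. The log2 difference of miR-92b-3p kept its direction under all 23 (-1.21 to -0.35, adjusted p from 0.144 to 0.857), as did miR-92b-5p (-1.12 to -0.27), and those of miR-92a-3p (0.11 to 0.76) and miR-25-3p (0.27 to 0.72) under all 22 that tested them. At an unadjusted p under 0.05, miR-92b-3p passed under 9 of 23. The ratio of miR-92b-3p to miR-92a-3p kept its direction under 10 alternatives (-1.96 to -0.52), with an exact permutation p of 0.5 under the replicate block, where the smallest possible is 0.25. Leaving out 1 library moved the log2 ratio of family sums over -0.96 to -0.19.

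miR-25-5p changed sign: -0.00266 with a pseudocount of 10 RPM, -0.0374 with median-of-ratios scaling, -0.0577 without the 10 most abundant miRNAs in the total, -0.00233 with quantile normalization, -0.11 without both libraries numbered 3, -0.13 in the authors' deposited table, and -0.24 to 0.43 with 1 library left out.

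The number of called miRNAs, 3 in the main analysis, fell to 1 with the filter raised to 100 RPM (129 tested) and was 10 with the replicate block, with or without miR-24-3p, 7 in the authors' deposited table and 2 to 8 with 1 library left out, the 8 without CON-BDEV 2. The cause was not tested. The block changed no call of a family member. The runs without miR-24-3p, and with the GC trend removed and CON-BDEV 1 left out together, were chosen after seeing the data. The planned edgeR fits were not run, because the values were not taken as counts. If 1 step is 1 read, counting error reached 10.98% for miR-25-3p and 10.2% for miR-92a-3p, below the spread between control libraries of both (24.8% and 23.2%). Between SE-BDEV libraries the spread was 32.95% for miR-92a-3p. For miR-25-3p it was only 6.56%, no larger than counting error alone, which on the same reading was 5.60% to 7.91% in those libraries.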
